A study of Mus musculus with 20 samples.

Results

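Glutamate and GABA receptor subunits were described across 20 poly(A)-selected RNA libraries of mouse brain. The members were all genes whose symbol names a subunit of an ionotropic glutamate receptor (Gria, Grin, Grik, Grid), a metabotropic glutamate receptor (Grm), a GABA-A receptor (Gabra, Gabrb, Gabrg, Gabrd, Gabre, Gabrq, Gabrr) or the GABA-B receptor (Gabbr). The rule used the symbol only and no measured value. It found 46 of the 23845 genes in the table: 4 AMPA, 7 NMDA, 5 kainate and 2 delta receptor genes, 8 metabotropic glutamate receptor genes, 15 GABA-A and 3 GABA-A rho genes, and 2 GABA-B genes. Of these, 44 passed the filter on low counts and were among the 16063 genes tested. Gabrr3 and Grm6 did not pass it.

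The study characterised C57/Bl6J mice that carry single-isoform changes in the JNK kinase genes, fed a normal diet. The labels give 7 genotypes. There were 3 libraries each of Wild type mice, of the lines J1 lf/lf and J2 lf/lf and of J17a, J27a and J27b. J17b had 2. The labels do not spell out these codes, nor say whether the named form is the one removed or kept, nor give age or sex. They also do not say that the libraries are separate animals, and the p-values below therefore reflect the spread among these libraries, which may be technical. Pairs of libraries within a group differed by more than counting noise (chi-square per gene from 5.43 to 62.1). That does not show whether they are separate animals.

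Glutamate is the main excitatory transmitter of the brain and GABA the main inhibitory one. Ionotropic receptors are channels built from several subunits whose mix sets their opening and ion selectivity, while metabotropic glutamate and GABA-B receptors signal through G proteins. JNK kinases phosphorylate the transcription factor c-Jun, a component of AP-1, and proteins of the synapse.

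At the level of whole genes, Mapk9, which encodes JNK2, lay between 58.1 and 177 CPM (counts scaled to the library total) in J2 lf/lf and between 274 and 360.4 CPM in the other groups. Mapk8, which encodes JNK1, lay between 74.6 and 79.2 CPM in J17b and between 102 and 140.4 CPM elsewhere. Sums over a gene do not resolve its alternative exons, so they do not check the single-isoform labels. Library totals ran from 21395041 to 33828755 counts. Brain markers were present throughout: the summed level of 5 forebrain glutamatergic neuron markers ran from 886 to 1562 CPM over the libraries and that of 5 oligodendrocyte markers from 4738 to 7171 CPM. Wild type replicate 3 stood apart in the receptor genes, with a median absolute distance of 0.33 (log2) from the median library, against 0.06 to 0.16 in the other 19 libraries. It was the highest of the 20 libraries for 13 of the 44 tested receptor genes and the lowest for 7. It also had the lowest forebrain marker sum. Where stated, results that rest on it are also given without it.

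No receptor gene passed an adjusted p of 0.05 (edgeR quasi-likelihood test, adjusted by Benjamini-Hochberg over all 16063 genes) in any of 11 comparisons. The nearest were Grin2b, the GluN2B subunit of NMDA receptors, Grm2, the presynaptic mGlu2 receptor, and Gabrr2, the rho2 subunit of GABA-A receptors. Grin2b had an adjusted p of 0.0978 in the edgeR test for any difference among the 7 groups, Grm2 0.291 and Gabrr2 0.372. In that test 14 of all genes, 0.0872%, were called. An unadjusted p under 0.05 was found for 6.71% of all genes and for 5 receptor genes (11.4%). With DESeq2's likelihood ratio test, which called 1.44% of all genes, these 3 receptor genes passed, with adjusted p of 2.40e-05 for Grin2b, 0.0126 for Grm2 and 0.0208 for Gabrr2. DESeq2's Wald test called 0 receptor genes in each of the other comparisons.

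Promoter windows are shown for 4 receptor genes on whose values the text dwells. Among receptor genes, Grm2 and Gabrr2 had the smallest p after Grin2b in the edgeR test of the 7 groups, and neither passed. Gabra6 and Grin3b varied widely between libraries. The RefSeq table (GRCm38.p6) matched 31 of the 46 members with 38 windows. Printed are the bases before the gene's annotated start, 5′ to 3′ on the gene's strand, in lower case with the motifs searched in capitals. Motifs and GC content were read over the 250 bases before the RefSeq start. For Gabrr2 (137 bases printed) and Grin3b (241 bases printed) the print stops before the gene start in GENCODE. The printed parts were chr9:106656110-106656359 for Grm2 (minus strand), chr4:33062862-33062998 for Gabrr2 (plus strand), chr11:42321073-42321322 for Gabra6 (minus strand) and chr10:79970474-79970714 for Grin3b (plus strand).
Grm2: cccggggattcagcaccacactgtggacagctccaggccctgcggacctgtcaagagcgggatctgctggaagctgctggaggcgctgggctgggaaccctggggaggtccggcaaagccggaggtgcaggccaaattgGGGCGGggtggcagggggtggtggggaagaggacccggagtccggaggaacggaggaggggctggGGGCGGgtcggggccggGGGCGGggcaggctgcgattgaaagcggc
Gabrr2: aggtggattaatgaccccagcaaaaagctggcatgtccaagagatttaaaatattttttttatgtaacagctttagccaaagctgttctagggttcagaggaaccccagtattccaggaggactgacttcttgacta
Gabra6: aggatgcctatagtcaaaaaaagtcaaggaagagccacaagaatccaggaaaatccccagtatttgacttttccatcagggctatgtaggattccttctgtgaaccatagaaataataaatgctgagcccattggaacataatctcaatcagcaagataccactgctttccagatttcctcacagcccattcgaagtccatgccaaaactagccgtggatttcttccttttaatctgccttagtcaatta
Grin3b: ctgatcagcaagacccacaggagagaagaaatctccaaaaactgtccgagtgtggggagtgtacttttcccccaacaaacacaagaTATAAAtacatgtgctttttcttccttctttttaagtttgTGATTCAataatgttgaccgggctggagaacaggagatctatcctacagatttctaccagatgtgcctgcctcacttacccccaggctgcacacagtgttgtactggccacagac

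The motifs searched on both strands were the AP-1 site TGANTCA, the cyclic AMP response element TGACGTCA, the palindromic NFI site, the TATA box TATAAA and the GC box GGGCGG. The Grm2 window held 3 GC boxes, and its GC content was 71.2%. Gabra6, the alpha6 subunit of cerebellar granule cells, had a window with a GC content of 40.8% and none of the motifs. The Gabrr2 window had a GC content of 47.6% and also none of them. The median GC content of all 32851 windows was 52.4%. Grin3b, the GluN3B subunit, held an AP-1 match 124 bases and a TATA box 164 bases before the RefSeq start. Over all windows of 250 bases, 6.75% held the AP-1 letters, against 2 of the 38 member windows, those of Grin3b and Grm8. The cyclic AMP response element was in 1.55% of all windows and the NFI site in 0.0365%, and neither was in a member window. The TATA box was in 12.4% of all windows and 4 of 38 member windows. The GC box was in 32.7% of all windows and 18 of the 38. A match is a run of letters and not a measured binding site.

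Levels were compared between genes in TPM, which is scaled by transcript length. The highest mean levels over the 20 libraries were those of Gabbr1, the ligand-binding GABA-B subunit, at 377 TPM, and Grin1, the obligatory NMDA receptor subunit, at 342 TPM. Gabbr1 was above Grin1 in 20 of 20 libraries. Further down the order, neighbours could overlap: Gria2 (199 TPM) was above Gabbr2 (191 TPM) in 11 of 20 libraries.

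Within families the spread was wide. Among AMPA receptor genes Gria1 had 219 TPM, Gria2 199, Gria3 115 and Gria4 105. Grin1 held 65.1% of the NMDA receptor total, with Grin2b at 69.1 TPM, Grin2c at 43.6, Grin2a at 34.1, Grin3a at 20.9, Grin2d at 14.6 and Grin3b at 1.11. Grik5, a high-affinity kainate subunit, had 126 TPM, with Grik3 at 37.6, Grik2 at 29.0, Grik4 at 16.3 and Grik1 at 11.6. Grik5 thus held 57.2% of the kainate total. The delta receptor gene Grid1 had 48.2 TPM.

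Of the metabotropic receptors, Grm4 had the highest mean at 70.5 TPM. Grm5 was at 64.1 TPM, Grm3 at 47.0, Grm2 at 33.0, Grm7 at 28.6 and Grm8 at 11.1 TPM. Grm6, the mGlu6 receptor of retinal ON bipolar cells, had 0 counts in every library, which allows at most 0.14 CPM in any library (3 counts). Among GABA-A subunits, Gabrb2 had 137 TPM, Gabrd 100.1, Gabra3 96.6, Gabra6 88.4, Gabra4 72.2, Gabra5 60.2, Gabrb1 36.3, Gabra2 34.5 and Gabrg1 20.8 TPM. Gabrg3 (8.24 TPM), Gabrq (6.07 TPM) and Gabre (1.77 TPM) were the lowest of that family. Of the rho subunits, best known from the retina, Gabrr2 had 1.79 TPM, about the level of Gabre, and Gabrr1 (0.295 TPM) and Gabrr3 (0.016 TPM) were lower still. Gabrr3 had 5 counts in all, in 2 libraries.

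**Figure D1:**
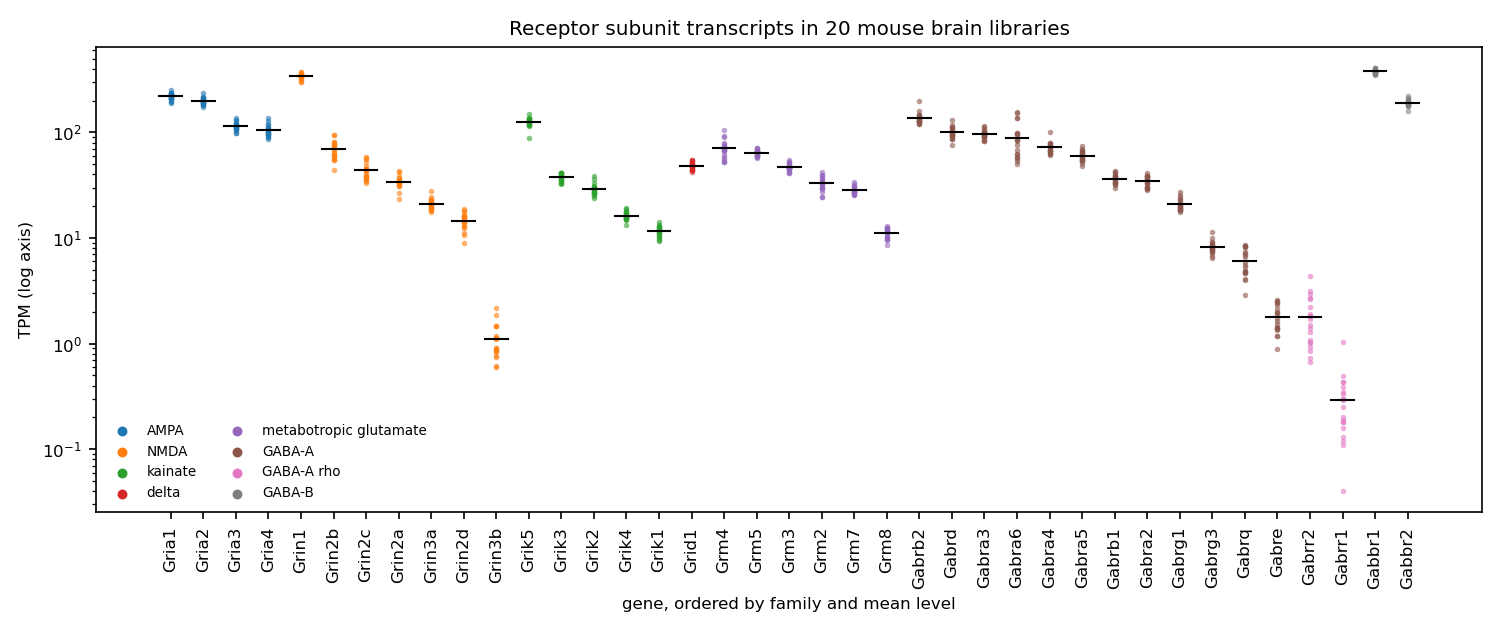
Level of 39 receptor genes with a mean above 0.1 TPM in each of the 20 libraries, in TPM on a log axis, grouped by receptor family. Gabbr1 (mean 377 TPM) and Grin1 (342 TPM) are at the top, and the rho subunit Gabrr1 (0.295 TPM) is at the bottom.

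Levels of 1 gene were compared between libraries in CPM with TMM factors. The steadiest receptor gene was Gabbr1, with a coefficient of variation of 4.93% over the 20 libraries, followed by Grm5 at 6.07% and Gria1 at 6.37%. Gabbr1 was 748, 703 and 625 CPM in Wild type, 633, 671 and 673 in J1 lf/lf, 683, 727 and 703 in J2 lf/lf, 741, 699 and 685 in J17a, 684 and 629 in J17b, 710.3, 708 and 692 in J27a, and 687, 724 and 707 in J27b. All groups overlapped with Wild type. Among well-expressed genes Gabra6 varied most, by 36.3%, from 48.7 to 141 CPM. Gabrr1 (71.0%), Gabrr2 (53.5%) and Grin3b (36.8%) were above it but have few counts.

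**Figure D2:**
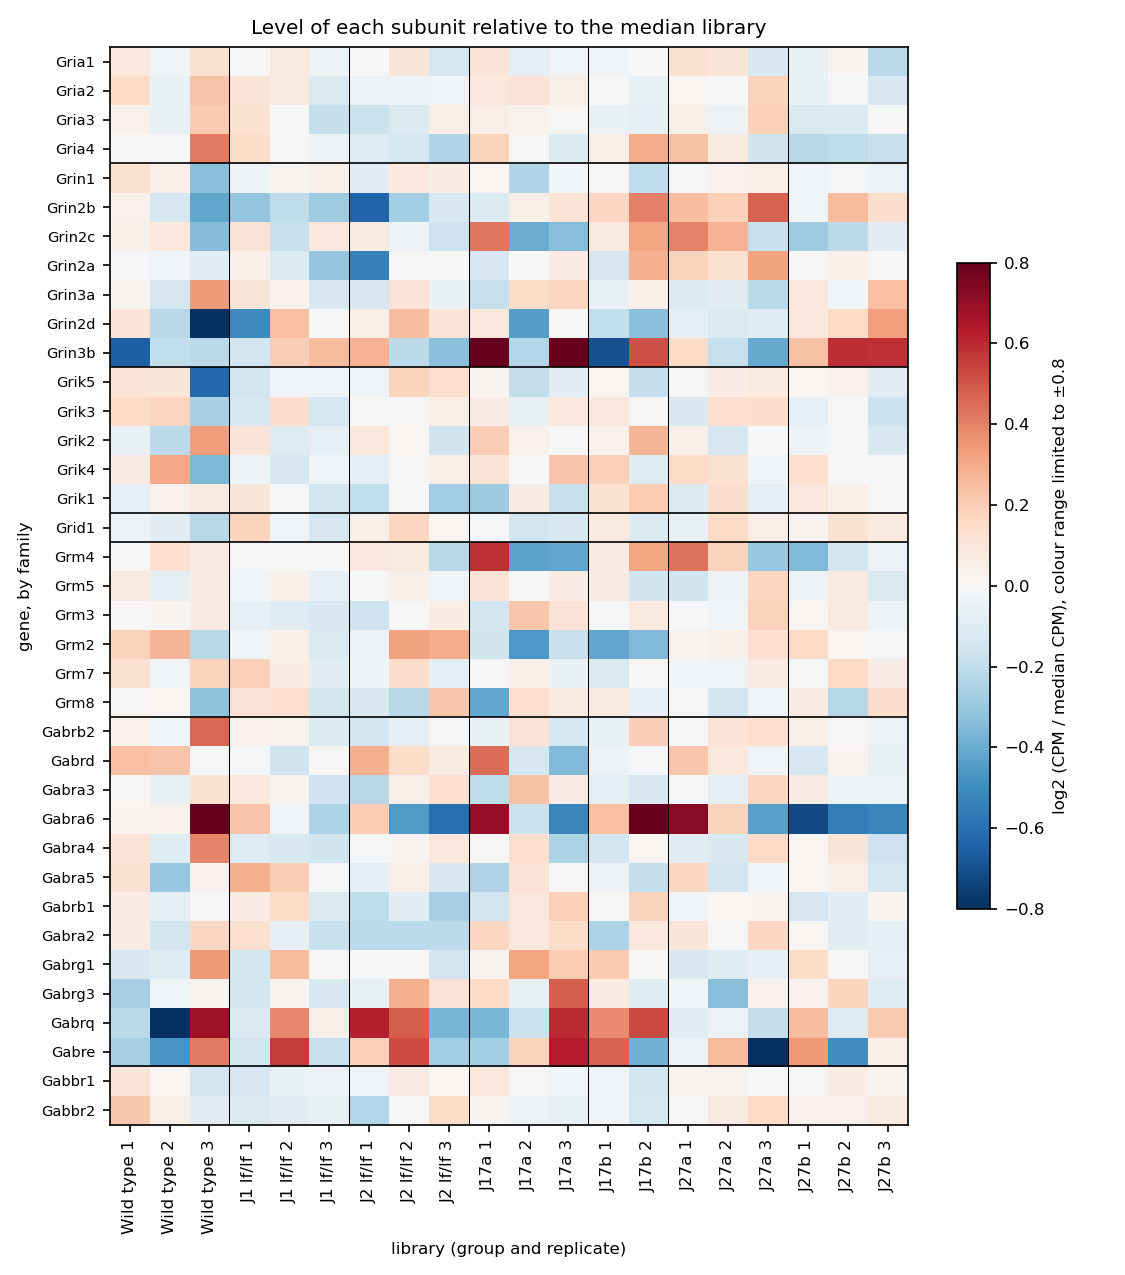
Levels of 37 receptor genes (rows, the rho subunits are not shown) in each of the 20 libraries (columns) as log2 CPM minus that of the median library, with the colour limited at 0.8 either way. The column of Wild type replicate 3 stands out, as does the row of Gabra6.

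The first question was how each isoform line compared with Wild type. The 6 comparisons share the Wild type libraries, so they are not independent of each other. By edgeR none of the 44 receptor genes was called in J1 lf/lf, where 0.0125% of all genes were, nor in J2 lf/lf (0.00623%), J17b (0.0249%), or J17a, J27a and J27b (0% of all genes each). At an unadjusted p under 0.05, the count of receptor genes was 1 in J1 lf/lf, 9 in J2 lf/lf, 3 in J17a, 3 in J17b, 1 in J27a and 9 in J27b. Over all genes that share was 5.04%, 7.94%, 4.39%, 5.85%, 4.84% and 6.94% in the same order, and for the receptor genes of J2 lf/lf and of J27b it was 20.5%. The median log2 fold change of the 44 genes was -0.06 in J1 lf/lf, -0.08 in J2 lf/lf, -0.02 in J17a, 0.005 in J17b, -0.02 in J27a and -0.04 in J27b. Over all genes these medians lay between -0.0045 and 0.0042.

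These counts turned on Wild type replicate 3. Without it, an alternative chosen after seeing the data, the count at an unadjusted p under 0.05 was 2 in J2 lf/lf and 4 in J27b, and 7 in J1 lf/lf, 6 in J17a, 9 in J17b and 1 in J27a. The share over all genes was then 4.28% in J2 lf/lf, 7.36% in J27b, 9.83% in J1 lf/lf, 6.90% in J17a, 13.3% in J17b and 4.86% in J27a. The receptor medians were then between -0.05 (J2 lf/lf) and 0.05 (J17b).

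Grin2b (chromosome 6, 135713233 to 136173511, mm10) encodes the NMDA receptor subunit that predominates early in development. It was 223, 199 and 163 CPM in Wild type, 175, 189 and 179 in J1 lf/lf, 139, 179.5 and 199.7 in J2 lf/lf, and 202, 225 and 235 in J17a. It was 245 and 288 CPM in J17b, 258, 248 and 302 in J27a, and 212, 259 and 240.1 in J27b. The libraries of J17b and J27a were all above Wild type, while J17a and J27b overlapped with it. The log2 fold change to Wild type was 0.47 in J27a (SE 0.12, edgeR adjusted p = 0.84), 0.45 in J17b (SE 0.14, edgeR adjusted p = 0.61), 0.28 in J27b (SE 0.12, edgeR adjusted p = 0.717) and 0.18 in J17a (SE 0.12, edgeR adjusted p = 0.993). None passed the threshold. Without Wild type replicate 3 these values were 0.35, 0.34, 0.17 and 0.07 in the same order.

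The Grin2b levels moved with the running number in the library titles. The 10 libraries numbered up to 10 hold both lf/lf lines, Wild type and J17a replicate 1, and the 10 above it hold all other libraries of the isoform lines. Grin2b ran from 139 to 223 CPM (median 184) in the first 10 libraries and from 212 to 302 CPM (median 247) in the others, 9 of which were above all of the first 10. The ribosomal RNA gene Rn45s ran from 3066 to 6718 CPM in the first 10 and from 17321 to 54698 CPM in the others. What the number stands for is not given, and apart from J17a it cannot be told apart from the line. With the number as a term, the edgeR test of Grin2b among the 7 groups had an adjusted p of 0.907. Only J17a has libraries on both sides of the number, so this term rests on J17a replicate 1 against the other J17a libraries. Within the first libraries (Wild type and both lf/lf lines) the edgeR adjusted p was 0.945, and within the later ones (the 4 isoform lines) it was 0.495, both tests chosen after seeing the data.

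Grin2a, the subunit that joins NMDA receptors of mature synapses, was 62.7, 61.8 and 59.3 CPM in Wild type, 65.4, 58.3 and 50.7 in J1 lf/lf, 43.3, 63.5 and 62.9 in J2 lf/lf, and 57.4, 62.7 and 65.8 in J17a. It was 57.5 and 76.7 CPM in J17b, 71.3, 68.5 and 78.8 in J27a, and 63.4, 64.8 and 63 in J27b. All J27a libraries were above Wild type, with a log2 fold change of 0.25 (SE 0.12, edgeR adjusted p = 0.959). All J27b libraries were also above Wild type, by a small margin (lowest 63.0 against at most 62.7 CPM). The log2 ratio of Grin2a to Grin2b in TPM was -0.89 ± 0.19 (SD, n = 3) in Wild type, -0.87 ± 0.20 (SD, n = 3) in J1 lf/lf and -0.84 ± 0.10 (SD, n = 3) in J2 lf/lf. In the isoform lines it was -1.06 ± 0.02 (SD, n = 3) in J17a, -1.23 ± 0.13 (SD, n = 2) in J17b, -1.11 ± 0.05 (SD, n = 3) in J27a and -1.12 ± 0.13 (SD, n = 3) in J27b. These 4 lines were lower on average than the other groups, and the title numbers split the libraries in the same way but for J17a replicate 1, which was at -1.04. Single libraries overlapped across this split: J1 lf/lf replicate 3 was also at -1.04, and J27b replicate 1 was at -0.97. The Wild type libraries were at -1.06, -0.91 and, for replicate 3, -0.69.

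Grin1, the highest NMDA receptor gene, was 627, 593 and 456 CPM in Wild type, 560.4, 585 and 593 in J1 lf/lf, 541, 612 and 599.8 in J2 lf/lf, and 583, 488 and 567 in J17a. It was 580.3 and 499.6 CPM in J17b, 569, 589 and 593 in J27a, and 564, 572 and 558 in J27b. Wild type held both the highest library and the lowest, replicate 3. The exons of Grin1 share 1307 bases with Grin1os on the opposite strand, and whether counting used strand is unknown, so its level and its share of the NMDA total are uncertain. Grin3a was 67.7, 60.7 and 84.4 CPM in Wild type, 71.3, 68.3 and 61 in J1 lf/lf, 60.8, 72.1 and 64.2 in J2 lf/lf, and 58.7, 73.7 and 75.1 in J17a. It was 63.9 and 68.7 CPM in J17b, 61.7, 63 and 57.5 in J27a, and 70.7, 65.7 and 78.8 in J27b. Wild type replicate 3 was the highest library and the J27a libraries overlapped with Wild type. Its log2 fold change was -0.22 from Wild type to J27a (SE 0.11, edgeR adjusted p = 0.959), and -0.08 without Wild type replicate 3. Grin3b, at the other end of the family, was 0.819, 1.12 and 1.11 CPM in Wild type, 1.16, 1.48 and 1.53 in J1 lf/lf, 1.56, 1.11 and 1.02 in J2 lf/lf, and 2.43, 1.1 and 2.81 in J17a. It was 0.794 and 1.84 CPM in J17b, 1.43, 1.13 and 0.975 in J27a, and 1.51, 1.94 and 1.93 in J27b. J17a and Wild type overlapped, and the log2 fold change was 1.05 (SE 0.35, edgeR adjusted p = 0.993). Its exons share 1059 bases with Tmem259 on the opposite strand, so this level is uncertain in the same way.

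Grm2 (chromosome 9, 106643095 to 106656082, mm10), whose promoter window with the 3 GC boxes is printed above, encodes a receptor that lowers glutamate release. It was 49.9, 53.1 and 37.7 CPM in Wild type, 43.1, 45.2 and 40.6 in J1 lf/lf, 42.6, 55.0 and 54.0 in J2 lf/lf, and 39.3, 32.0 and 38.9 in J17a. It was 33.0 and 34.4 CPM in J17b, 44.9, 45.4 and 48.1 in J27a, and 49.2, 44.5 and 43.4 in J27b. Both J17b libraries were below every Wild type library, and the J17a libraries overlapped with Wild type only through its replicate 3.

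For Grm2 the log2 fold change to Wild type was -0.48 in J17b (SE 0.13, edgeR adjusted p = 0.557), -0.35 in J17a (SE 0.11, edgeR adjusted p = 0.993) and -0.13 in J1 lf/lf (SE 0.11, edgeR adjusted p = 0.952). Without Wild type replicate 3, the J17b difference was -0.61 and passed the threshold (edgeR adjusted p = 0.0193, with 0.336% of all genes called). The test among the 7 groups then had an edgeR adjusted p of 0.00983 for Grm2 and 0.0448 for Grin2b, with 0.71% of all genes called. Within the 10 libraries numbered above 10, the edgeR adjusted p of Grm2 among the 4 isoform lines was 0.0596, and within Wild type and both lf/lf lines it was 0.945. A fit with the title number as a term, which rests on the J17a libraries alone, gave 0.368 among the 7 groups. The J17a and J1 lf/lf differences without Wild type replicate 3 were -0.49 and -0.26, and the J1 lf/lf difference was -0.03 without Wild type replicate 2.

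The other metabotropic receptor named by its level, Grm4, was 112, 123 and 117 CPM in Wild type, 111, 112 and 112 in J1 lf/lf, and 119, 118 and 95.9 in J2 lf/lf. It was 168, 83.0 and 83.8 CPM in J17a, 117 and 139 in J17b, 151, 127 and 90.8 in J27a, and 87.8, 101 and 108 in J27b. J17a and J27a each held libraries far apart.

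**Figure D3:**
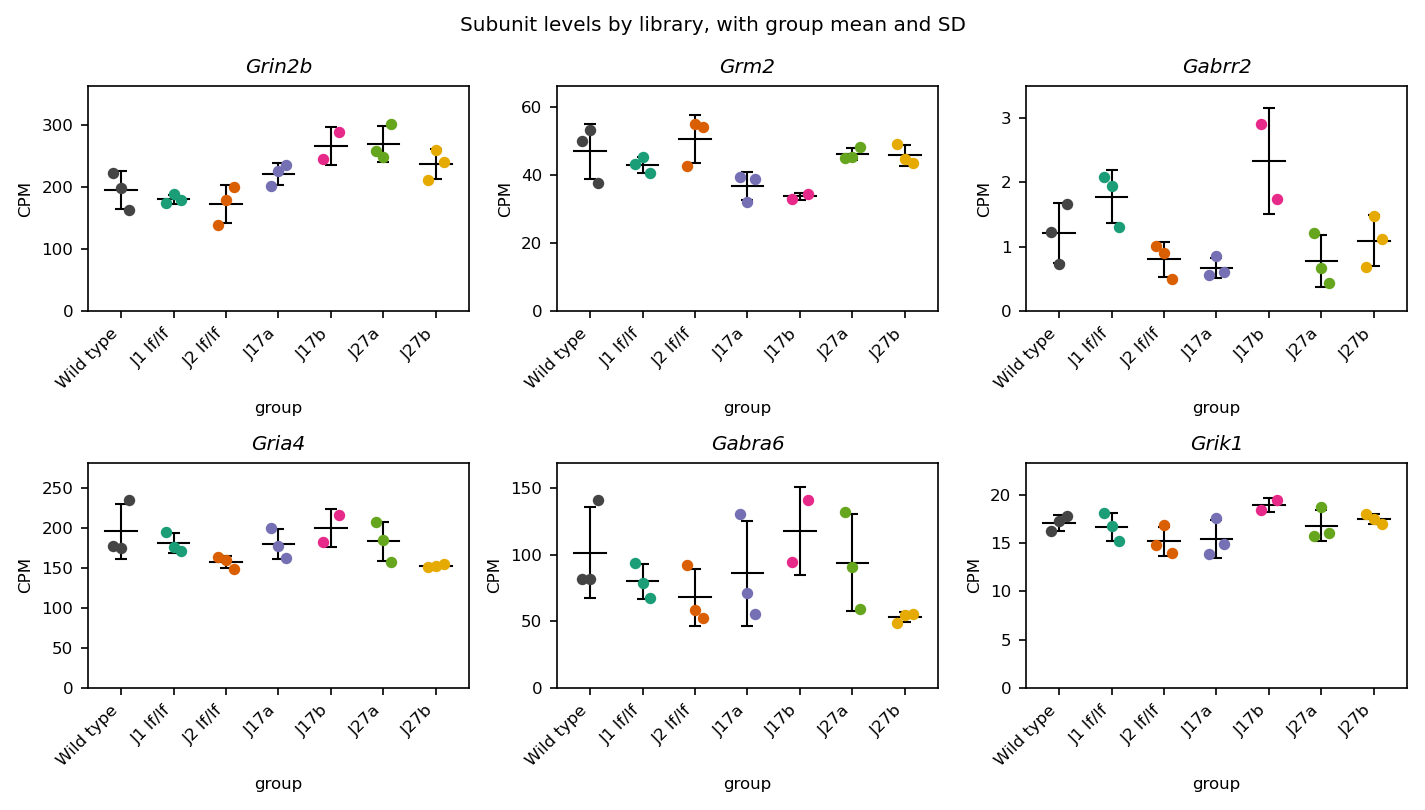
Level in CPM of Grin2b, Grm2, Gabrr2, Gria4, Gabra6 and Grik1 by group, 1 point for each library, with the group mean and SD. For Grin2b all J17b and J27a libraries are above the highest Wild type library (223 CPM), and for Grm2 both J17b libraries (33.0 and 34.4 CPM) are below the lowest (37.7 CPM).

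AMPA receptors carry most fast excitation. Gria1 was 549.6, 508 and 563 CPM in Wild type, 520.0, 547 and 504 in J1 lf/lf, 516, 555 and 469 in J2 lf/lf, and 558, 493 and 507 in J17a. It was 510.1 and 519.7 CPM in J17b, 564, 553 and 474 in J27a, and 498, 526 and 448 in J27b. All groups overlapped with Wild type. Gria4 was 177, 175 and 235 CPM in Wild type, 195, 176 and 171 in J1 lf/lf, 164, 159 and 149 in J2 lf/lf, and 200.1, 177 and 163 in J17a. It was 183 and 216 CPM in J17b, 207, 185 and 158 in J27a, and 151, 152 and 155 in J27b. All libraries of J2 lf/lf and J27b were below Wild type. The log2 fold change was -0.31 in J2 lf/lf (SE 0.11, edgeR adjusted p = 0.618) and -0.36 in J27b (SE 0.11, edgeR adjusted p = 0.703). Without Wild type replicate 3 these were -0.16 and -0.20.

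Gria2, the subunit that makes AMPA receptors impermeable to calcium, was 551, 475 and 578 CPM in Wild type, 529.7, 519 and 455 in J1 lf/lf, 477, 479 and 485 in J2 lf/lf, and 524, 531 and 510.5 in J17a. It was 494 and 473 CPM in J17b, 499, 493 and 558 in J27a, and 475, 491 and 449.5 in J27b. J27b and Wild type overlapped, with a log2 fold change of -0.18 (SE 0.07, edgeR adjusted p = 0.713). Wild type replicate 3 was the highest of the 20 libraries for Gria2, and the value without it is not given. The share of Gria2 among the 4 AMPA receptor genes in TPM lay between 29.1% and 33.8% over all 20 libraries. In Wild type that share was 31.6% ± 0.87 (SD, n = 3).

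Gabra6 (chromosome 11, 42306437 to 42321072, mm10), whose promoter window is printed above, was 81.5, 82.1 and 141 CPM in Wild type, 93.9, 78.9 and 67.4 in J1 lf/lf, 92.4, 58.7 and 52.8 in J2 lf/lf, and 131, 71.3 and 55.8 in J17a. It was 94.7 and 141 CPM in J17b, 132, 90.8 and 59.3 in J27a, and 48.7, 54.6 and 55.8 in J27b. The J27b libraries were all below Wild type, while J17a and J27a ranged more than 2-fold within the line. From Wild type to J27b the log2 fold change was -0.93 (SE 0.36, edgeR adjusted p = 0.713), and -0.63 without Wild type replicate 3. A fit that holds the title number as a term gave 0.11. Only J17a has libraries on both sides of that number. The term therefore rests on J17a replicate 1 (131 CPM) against the other J17a libraries (71.3 and 55.8 CPM).

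Gabra6, Gria4, Grm4 and Grin2c are strongly expressed in the cerebellum, and their levels were set beside its markers. They followed these markers only in part. The summed level of 7 cerebellar granule cell markers (Fat2, Cbln1, Cbln3, Neurod1, Barhl1, Zic1 and Zic2, all tested) ran from 748 to 992 CPM in Wild type, 736 to 812 in J1 lf/lf, 559 to 857 in J2 lf/lf and 533 to 1141 in J17a. It ran from 915 to 1200.4 CPM in J17b, 558 to 1160 in J27a and 532 to 633 in J27b. The 4 highest libraries were J17b replicate 2, J27a replicate 1, J17a replicate 1 and Wild type replicate 3. They were also the 4 highest for the 4 Purkinje cell markers (842 to 1023 CPM).

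The same 4 libraries were the 4 highest for Gabra6 (at least 131 CPM, against at most 94.7 in the other 16) and for Gria4 (at least 200.1 against at most 195). For Grm4 and Grin2c 3 of the 4 were among the highest. The exception was Wild type replicate 3, at 117 and 68.8 CPM. The low end was less alike. Of the 4 libraries with the lowest marker sums, 2 were among the 4 lowest for Gabra6 and 1 for Gria4. For Grin2c it was 3 and for Grm4 all 4. For Gabrd, 1 of the 4 highest and 3 of the 4 lowest libraries were shared with the markers. The J27b libraries had granule cell marker sums that ranked 14, 15 and 20 of 20. The part of these markers in the differences of Gabra6 and Gria4 was not tested. In bulk tissue, fewer cells of a type and less RNA per cell cannot be told apart.

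**Figure D4:**
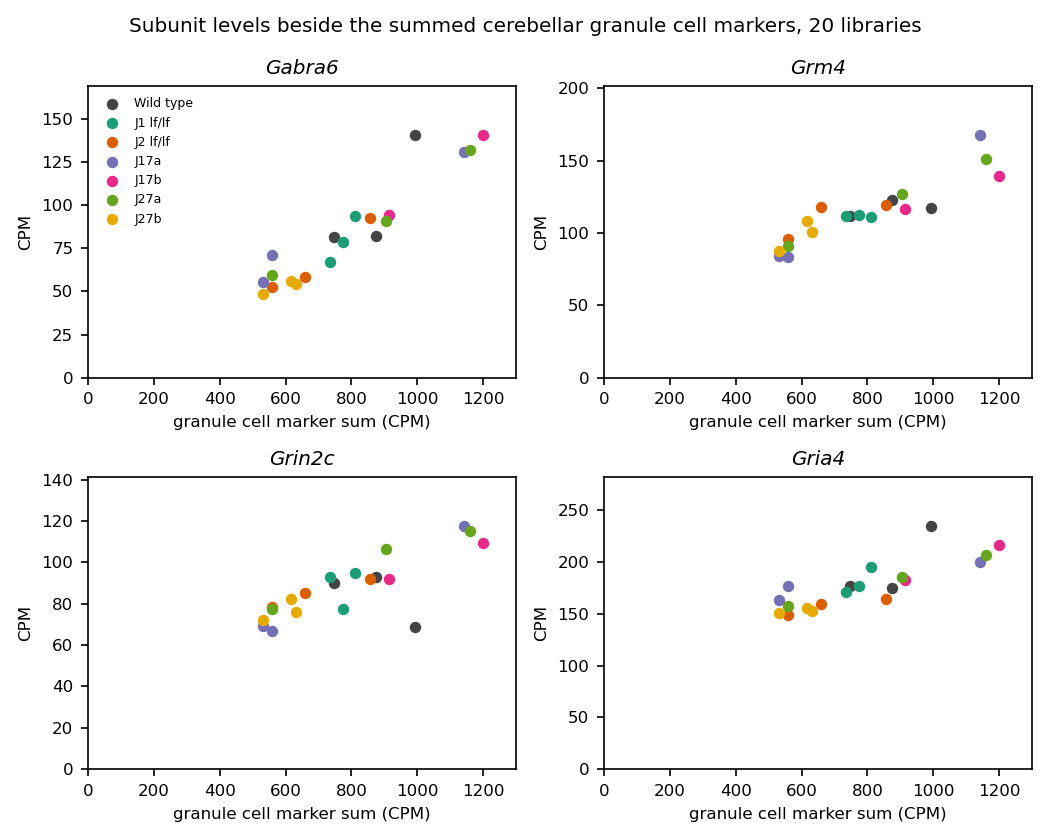
Level in CPM of Gabra6, Grm4, Grin2c and Gria4 against the summed level of 7 cerebellar granule cell markers, 1 point for each library. The 4 libraries with the highest marker sums (992 CPM and above) are also the 4 highest for Gabra6 and Gria4.

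Grid1, a delta receptor gene, ran from 56.5 to 74.6 CPM over the 20 libraries. It lies 1.37 Mb from Mapk8 on chromosome 14, and was 64.3, 62.2 and 56.5 CPM in Wild type, 74.6, 64.8 and 60.2 in J1 lf/lf, 68.2, 74.3 and 66.8 in J2 lf/lf, and 65.3, 59.6 and 60.3 in J17a. It was 69.7 and 61.3 CPM in J17b, 63.6, 73.4 and 68.5 in J27a, and 67, 71.8 and 69.6 in J27b. All libraries of J2 lf/lf and J27b were above Wild type, and the other lines overlapped with it. The log2 fold change was 0.19 in J2 lf/lf (SE 0.08, edgeR adjusted p = 0.624) and 0.19 in J27b (SE 0.08, edgeR adjusted p = 0.717). Without Wild type replicate 3 both were 0.14.

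Gabrb2 (chromosome 11, 42419757 to 42629028, mm10) lies on the chromosome of Mapk9 and 7.22 Mb from it, and Gabra6 lies 7.53 Mb from it. Gabrb2, a beta subunit, was 436, 416 and 586 CPM in Wild type, 436, 434 and 394 in J1 lf/lf, 383, 403 and 420.3 in J2 lf/lf, and 409, 461 and 386 in J17a. It was 408 and 487 CPM in J17b, 423, 462 and 467 in J27a, and 439.5, 427 and 412 in J27b. Both lf/lf groups overlapped with Wild type. The log2 fold change was -0.19 in J1 lf/lf (SE 0.10, edgeR adjusted p = 0.944) and -0.25 in J2 lf/lf (SE 0.10, edgeR adjusted p = 0.618), or -0.02 and -0.08 without Wild type replicate 3. Gabra4, a subunit of extrasynaptic receptors, was 131, 113 and 159 CPM in Wild type, 112, 111 and 108 in J1 lf/lf, 120.3, 123 and 129 in J2 lf/lf, and 122, 132 and 102 in J17a. It was 109 and 122 CPM in J17b, 114, 111 and 134 in J27a, and 122, 129.5 and 108 in J27b. J1 lf/lf and Wild type did not overlap, and the log2 fold change was -0.28 (SE 0.11, edgeR adjusted p = 0.913), or -0.14 without Wild type replicate 3. Its exons share 46 bases with Gabrb1 on the opposite strand.

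The lowest tested members of the GABA-A families were near the limit of counting. Gabre was 1.54, 1.33 and 2.46 CPM in Wild type, 1.66, 2.72 and 1.62 in J1 lf/lf, 2.1, 2.64 and 1.52 in J2 lf/lf, and 1.53, 2.09 and 2.85 in J17a. It was 2.56 and 1.41 CPM in J17b, 1.79, 2.19 and 0.975 in J27a, and 2.33, 1.31 and 1.89 in J27b. Its groups overlapped. Gabrr1 lay between 0.0332 and 0.867 CPM. Gabrr2 (chromosome 4, 33062999 to 33095865, mm10) was 1.23, 0.739 and 1.67 CPM in Wild type, 2.08, 1.94 and 1.31 in J1 lf/lf, 1.01, 0.908 and 0.496 in J2 lf/lf, and 0.565, 0.856 and 0.618 in J17a. It was 2.91 and 1.74 CPM in J17b, 1.22, 0.680 and 0.447 in J27a, and 0.691, 1.47 and 1.13 in J27b. J17b was above every Wild type library, with a log2 fold change of 0.95 (SE 0.44, edgeR adjusted p = 0.828). It was 0.53 without J17b replicate 1.

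For GABA-B receptors, which form from Gabbr1 and Gabbr2 together, Gabbr2 was 358, 319.7 and 289.8 CPM in Wild type, 285, 290.4 and 296 in J1 lf/lf, 262, 307 and 341 in J2 lf/lf, and 313, 300.0 and 297 in J17a. It was 304 and 281 CPM in J17b, 310.3, 324 and 346 in J27a, and 317, 316 and 326 in J27b. J1 lf/lf and Wild type overlapped, with a log2 fold change of -0.15 (SE 0.08, edgeR adjusted p = 0.944), or -0.07 without Wild type replicate 1. The kainate receptor gene Grik5 was 216, 214 and 129 CPM in Wild type, 179, 197 and 195 in J1 lf/lf, 195, 226 and 218 in J2 lf/lf, and 202, 175 and 188 in J17a. It was 202 and 175 CPM in J17b, 198, 208 and 211 in J27a, and 202, 204 and 188 in J27b. Wild type replicate 3 was the lowest library for this gene.

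The second question was whether the 7a and 7b lines of 1 gene differed from each other. By edgeR none of the 44 receptor genes was called between J17a and J17b, between J27a and J27b or between both 7a and both 7b lines, and 0% of all genes were called in each. At an unadjusted p under 0.05 the counts were 2, 3 and 4 receptor genes (4.55%, 6.82% and 9.09%), where 5.90%, 5.79% and 5.19% of all genes had such a p. The median log2 fold change of the 44 genes was 0.01 between J17a and J17b, 0.04 between J27a and J27b, and 0.03 between both 7a and both 7b lines.

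Gabrr2 was 0.565 to 0.856 CPM in J17a, against 2.91 and 1.74 CPM in J17b. The groups did not overlap, and the log2 fold change of J17a against J17b was -1.77 (SE 0.45, edgeR adjusted p = 0.558). J27a and J27b overlapped. Over both pairs of lines the log2 fold change was -1.12 (95% interval -1.77 to -0.48, edgeR adjusted p = 0.74).

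Grik1, a kainate receptor subunit, was 16.2, 17.3 and 17.8 CPM in Wild type, 18.1, 16.7 and 15.2 in J1 lf/lf, 14.8, 16.8 and 13.9 in J2 lf/lf, and 13.8, 17.6 and 14.9 in J17a. It was 18.4 and 19.5 CPM in J17b, 15.7, 18.7 and 16.1 in J27a, and 18, 17.4 and 17 in J27b. The J17a libraries lay below both J17b libraries. The log2 fold change was -0.29 (SE 0.12, edgeR adjusted p = 0.79). Over all 20 libraries Grik1 ran from 13.8 CPM in J17a replicate 1 to 19.5 CPM in J17b replicate 2. For Grin2b, J17a was below J17b in every library, with a log2 fold change of -0.27 (SE 0.14, edgeR adjusted p = 0.849), or -0.15 without J17b replicate 2.

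Between J27a and J27b, the nearest genes were Gria4, at 0.26 (log2, SE 0.11, edgeR adjusted p = 0.811), Gabra6, at 0.83 (log2, SE 0.36, edgeR adjusted p = 0.855), and Grin3a, at -0.24 (log2, SE 0.11, edgeR adjusted p = 0.855). All 3 had groups that did not overlap. They were picked by the smallest p in this comparison, and the share of all genes with separated groups was not counted. Without J27a replicate 1, Gria4 was at 0.17 and Gabra6 at 0.51. The granule cell marker sum was 558 to 1160 CPM in J27a and 532 to 633 CPM in J27b, and its part in the values of Gria4 and Gabra6 was not tested.

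Gabra2, the alpha2 subunit, was 33.3, 28.6 and 35.6 CPM in Wild type, 34.8, 30.1 and 28.1 in J1 lf/lf, 27.5, 27.4 and 27.4 in J2 lf/lf, and 35.6, 33.8 and 35.2 in J17a. It was 26.6 and 33.7 CPM in J17b, 34, 31.5 and 35.6 in J27a, and 32.1, 29.8 and 30.2 in J27b. The 7a and 7b libraries overlapped. Over both pairs of lines the log2 fold change was 0.17 (95% interval 0.02 to 0.33, edgeR adjusted p = 0.924), or 0.10 without J17b replicate 1 and 0.26 without J17b replicate 2. For Gria2 it was 0.12 (95% interval 0.01 to 0.23, edgeR adjusted p = 0.931). The intervals of well-expressed genes were narrow: that of Gabbr1 ran from -0.05 to 0.15, and that of Grin1 from -0.11 to 0.17.

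**Figure D5:**
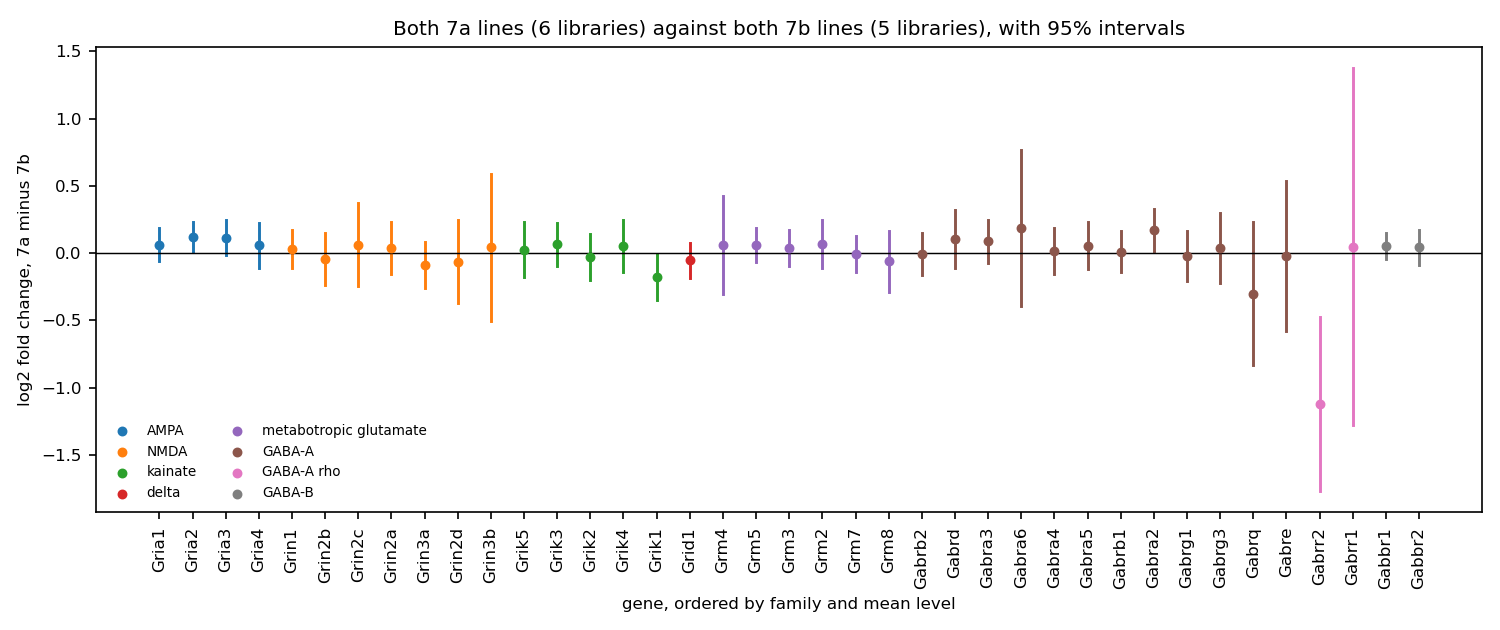
Log2 fold change of both 7a lines (6 libraries) against both 7b lines (5 libraries) for 39 of the 44 tested receptor genes, with 95% intervals from edgeR. Gabrr2 lies farthest from 0, at -1.12, and no gene passed the adjusted threshold.

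The difference between the 7a against 7b differences of the J1 lines and of the J2 lines was tested directly. By edgeR none of the 44 receptor genes was called, where 0.00623% of all genes were. An unadjusted p under 0.05 was found for 6.70% of all genes and for 7 of the 44 receptor genes (15.9%). Among them were Gria4, at -0.41 (log2, SE 0.16, edgeR adjusted p = 0.646) and Grin2b, at -0.46 (log2, SE 0.19, edgeR adjusted p = 0.648). J17b and J27a enter this contrast with the same sign, and each holds a library among the 4 with the highest granule cell marker sums (J17b replicate 2 and J27a replicate 1). Another, J17a replicate 1, enters with the opposite sign. The part of these markers in the value of Gria4 was not tested.

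The makeup of receptor families was compared between both 7a and both 7b lines by exact two-sided permutation of the labels within the J1 and within the J2 lines, with 200 arrangements, a smallest possible p of 0.005, and adjustment over 5 ratios. The share of Gria2 among the 4 AMPA receptor genes in TPM was 31.4% ± 1.49 (SD, n = 6) in the 7a lines and 30.8% ± 0.975 (SD, n = 5) in the 7b lines. It differed by 0.54 percentage points (exact permutation p = 0.535, adjusted 0.725). The log2 ratio of Grin2a to Grin2b differed by 0.08 (exact permutation p = 0.24, adjusted 0.6), and that of Gabbr2 to Gabbr1 by -0.01 (exact permutation p = 0.735, adjusted 0.735). The log2 ratio of summed ionotropic glutamate to summed GABA-A subunits differed by 0.02 (exact permutation p = 0.58, adjusted 0.725). That last ratio was -0.13 in Wild type replicate 3 and between 0.14 and 0.37 in the other 19 libraries.

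Genes that act with these receptors were read from 6 lists: 13 auxiliary subunits of AMPA and kainate receptors, 18 scaffolds of the glutamatergic postsynaptic density, 10 scaffolds and auxiliary proteins of GABA receptors, 9 genes of glutamate synthesis and transport, 7 of GABA synthesis, breakdown and transport, and 5 glycine receptor subunits. By edgeR with all libraries fitted, none of them was called in any comparison. In the test among the 7 groups, an unadjusted p under 0.05 was reached by 3 of the auxiliary subunits, 2 scaffolds, 3 genes of the glutamate and 1 of the GABA synthesis list, and none of the other lists, where 6.71% of all genes had such a p. Homer1, a scaffold that binds metabotropic glutamate receptors, was nearest, at 187, 190.3 and 194 CPM in J17a and 194, 168 and 225 in J27a, against 141 and 151 in J17b and 159.9, 164 and 149.6 in J27b. All 7a libraries were above all 7b libraries, with a log2 fold change of 0.35 (SE 0.08, edgeR adjusted p = 0.331). Wild type was 193, 176 and 197 CPM, J1 lf/lf 175, 160 and 138, and J2 lf/lf 159, 159 and 196. The share of all genes with 7a and 7b libraries so separated was not counted. DESeq2 called Homer1 between 7a and 7b lines (0.0498% of all genes called) and among the 7 groups (1.44%). With only J27a and J27b in the edgeR fit, 0.824% of all genes were called. The glutamate transporter Slc17a6 and the GABA transporter Slc6a11 passed, the only genes of the 6 lists to do so, and both were higher in J27b. The summed level of 6 thalamic neuron markers, Slc17a6 among them, was 413 to 452 CPM in J27a and 536 to 599 in J27b. That of 8 hindbrain Hox markers was 3.70 to 9.22 CPM and 12.8 to 20.6 CPM. The granule cell marker sum went the other way on average (874 and 594 CPM). The part of these markers in the values of Slc17a6 and Slc6a11 was not tested. Slc17a6 also passed among the 4 isoform lines within title numbers above 10 (0.178% of all genes called), a setting chosen after seeing the data. In the other lists the gene with the smallest p among the 7 groups was Neto1 (edgeR adjusted p = 0.614), Gphn, which encodes gephyrin (0.809), the glutamate transporter Slc1a2 (0.654), the GABA transporter Slc6a11 (0.678) and Glra1 (0.786).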

How the data were processed

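Per the labels, RNA was extracted from mouse brain with a DNase step, enriched for poly(A) and sequenced as paired ends. Per the submitters' processing notes, cutadapt, RSEM and the build mm10 were used. Tool versions, the annotation and any use of strand are unknown here. The authors deposited RSEM estimated counts per gene, of which 4.11% were not whole, and TPM values, which are scaled per transcript length and to 1 total.

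Estimated counts were rounded and tested with edgeR 4.0.16 in R 4.3.3, with TMM factors, filterByExpr, robust quasi-likelihood fits of all 20 libraries with a mean per group, two-sided tests and Benjamini-Hochberg adjustment at 0.05. The fit was run on simulated counts with a common dispersion and no outlying library, so this does not show how it behaves on these data. Gene positions and overlaps came from GENCODE on the same build. Alternatives used DESeq2 1.42.0 and limma 3.58.1 (TPM plus 1 or 0.1). The members and all lists were chosen with earlier results of these data known. Named were, per comparison, the 3 tested members with the smallest p, the highest and lowest of each family, and per list the gene with the smallest p among the 7 groups. Grin2b in J17a and J27b, Grm2 in J1 lf/lf, Grid1, and values given to complete a family, were chosen after seeing values. Intervals cover the spread between libraries. Values of some members are not reported here.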

Additional observations from a re-analysis of the deposited data

How the results depend on the processing

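Of 320 recomputed counts of receptor genes called (11 comparisons under other scaling, filters, tools, pseudocounts, samples, a replicate block, a title number term and each library left out), 316 were as reported, that is 0. The exceptions were J17b against Wild type, with 0 to 1 receptor genes when each library was left out in turn (1 without Wild type replicate 3), and any difference among the 7 groups, with 0 to 2 when each was left out (1 without Wild type replicate 1, where Grin2b had an edgeR adjusted p of 0.0494 and 0.119% of all genes were called, and 2 without Wild type replicate 3) and 3 with DESeq2. The cause was not tested.

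Of 1015 recomputed log2 fold changes of the named genes, 1014 kept their direction. That of Gabra6 in J27b was 0.11 with the title number as a term, which rests on the J17a libraries alone. Among the ratios between 7a and 7b lines, leaving out each library moved that of Gabbr2 to Gabbr1 from -0.046 to 0.0022 and that of ionotropic glutamate to GABA-A subunits from -0.0036 to 0.046, on the log2 scale. It moved that of Grin2a to Grin2b from 0.037 (without J17b replicate 1) to 0.12 (without J27b replicate 1), and the Gria2 share from 0.065 (without J27a replicate 3) to 0.954 percentage points (without J27a replicate 1). No ratio passed the adjusted threshold in any of these.

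With the replicate number as a block, 0 receptor genes were called in each comparison. Deviations of 57 same-numbered pairs of libraries correlated by -0.18 to 0.15 (mean -0.0088), and those of 114 differently numbered pairs by -0.21 to 0.27 (mean 0.0045). They were taken from means of 2 or 3 libraries, so they cannot show whether same-numbered libraries share more than the number. J17b has 2 libraries, which limits every comparison with it, and genes under 3 CPM, such as Gabrr2, Gabrr1, Grin3b and Gabre, have wide intervals.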
